A study of Mus musculus with 8 samples.

Results

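The 10 genes described here, Clec4f, Vsig4, Cd5l, Marco, Timd4, Folr2, Slc40a1, Nr1h3, Id3 and Spic, are commonly used to recognise Kupffer cells, and were taken by name from 24405 genes listed in the 8 count tables. Each table holds the transcripts of single cells captured with barcoded beads in microwells (Microwell-seq), counted as unique molecular identifiers (UMIs). BALB/c hearts, livers and kidneys had been implanted into C57BL/6 mice without immunosuppression, and cells were taken on day 7. The libraries were peripheral blood mononuclear cells (PBMCs) of heart, liver and kidney recipients, lymphocytes of the 3 grafts (TILs), and parenchymal cells (PCs) of liver and kidney grafts, with 1 library per condition. The labels give BALB/c, male and 8 weeks for every library, the C57BL/6 recipients come from the study's methods, and neither says which animals went into which library. More than 1 recipient was used per organ, so a library may hold cells of 1 animal or of a pool. Graft cells were released with collagenase, and TILs were then collected from a density gradient, so a TIL library still holds graft macrophages.

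Kupffer cells are the macrophages that live in the sinusoids of the liver, where they take up blood-borne microbes, worn-out red cells and lipoproteins. Embryonically seeded Kupffer cells renew themselves locally, and blood monocytes that enter an emptied niche take on the same genes in steps. Clec4f, a C-type lectin, is found in mice on Kupffer cells and hardly elsewhere, whereas several of the other genes are also used by macrophages of spleen, peritoneum or bone marrow.

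Cells were barcodes with at least 500 UMIs, and macrophages were cells with a Csf1r UMI or at least 5 UMIs of C1qa, C1qb and C1qc together. Depth set the precision: libraries held 3418722 to 19171264 UMIs, and macrophages numbered 4770 in liver PC, 3684 and 3950 in the libraries labelled heart TIL and liver TIL, 235 in kidney TIL, 149 in kidney PC, and 807, 906 and 50 in heart, liver and kidney PBMC. The 2 large TIL libraries went against their labels, because Alb, the albumin gene of hepatocytes, had 1056 UMIs in the library labelled heart TIL and 0 in the library labelled liver TIL, while Myl7, an atrial muscle gene, had 2 and 128. Pairs of libraries shared 123 to 617 of 10000 barcodes each. 2796 of the 4770 liver PC macrophages also carried at least 2 UMIs of the T cell genes Cd3d, Cd3e and Cd3g, so many of these barcodes hold RNA of more than 1 cell type. Of the macrophages in heart and liver PBMC, 802 of 807 and 898 of 906 qualified through Csf1r alone, a gene that monocytes also use.

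The starts of 5 of the genes are shown because Clec4f divides the macrophages below and the other 4 were among the genes at least 4-fold higher in Clec4f-positive cells. They are printed with the MAF core site TGCTGA in capitals on either strand (TCAGCA on the opposite strand). MAF is a transcription factor used by macrophages. The stretches run from 250 bases before to 50 after the RefSeq start on GRCm38.p6, 5′ to 3′ along the gene, for Clec4f at chr6:83656067-83656366 (minus strand), Vsig4 at chrX:96293389-96293688 (minus strand), Timd4 at chr11:46810549-46810848 (plus strand), Cd5l at chr3:87357631-87357930 (plus strand) and Marco at chr1:120504975-120505274 (minus strand).
Clec4f: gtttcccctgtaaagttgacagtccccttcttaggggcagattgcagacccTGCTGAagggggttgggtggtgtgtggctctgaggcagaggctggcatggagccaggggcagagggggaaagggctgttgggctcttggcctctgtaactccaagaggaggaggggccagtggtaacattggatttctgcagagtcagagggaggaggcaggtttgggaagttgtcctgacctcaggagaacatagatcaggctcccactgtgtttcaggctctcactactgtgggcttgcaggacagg
Vsig4: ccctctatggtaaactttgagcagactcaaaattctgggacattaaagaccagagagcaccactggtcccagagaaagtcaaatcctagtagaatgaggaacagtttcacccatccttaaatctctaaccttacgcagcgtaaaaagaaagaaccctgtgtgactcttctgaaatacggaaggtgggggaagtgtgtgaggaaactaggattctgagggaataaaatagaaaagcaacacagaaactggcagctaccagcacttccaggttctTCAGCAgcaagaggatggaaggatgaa
Timd4: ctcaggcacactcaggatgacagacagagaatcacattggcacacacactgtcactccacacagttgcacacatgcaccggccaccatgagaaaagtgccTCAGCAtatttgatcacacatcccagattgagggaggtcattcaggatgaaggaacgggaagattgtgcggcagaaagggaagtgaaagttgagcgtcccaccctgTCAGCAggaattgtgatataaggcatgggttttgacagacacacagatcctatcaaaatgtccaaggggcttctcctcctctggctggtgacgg
Cd5l: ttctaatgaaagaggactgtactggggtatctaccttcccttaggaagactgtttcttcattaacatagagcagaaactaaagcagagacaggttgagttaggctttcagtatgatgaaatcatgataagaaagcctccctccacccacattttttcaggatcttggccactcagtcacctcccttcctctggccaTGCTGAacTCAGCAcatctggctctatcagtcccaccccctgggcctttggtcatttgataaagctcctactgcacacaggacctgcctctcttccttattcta
Marco: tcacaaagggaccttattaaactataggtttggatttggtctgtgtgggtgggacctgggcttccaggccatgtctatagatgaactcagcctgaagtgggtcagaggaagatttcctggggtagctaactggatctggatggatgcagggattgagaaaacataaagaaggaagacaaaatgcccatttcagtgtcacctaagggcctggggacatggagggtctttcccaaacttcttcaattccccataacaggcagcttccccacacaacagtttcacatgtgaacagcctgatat
In Cd5l the 2 matches stood 2 bases apart in opposite directions, and Marco held none. RefSeq promoters were found for 9 of the 10 genes, 11 promoters in all. A gene was counted if any of its promoters matched, whereas the shares over all are per promoter. TGCTGA was held by 6 of the 9 (Clec4f, Vsig4, Cd5l, Timd4, Folr2 and Spic), compared with 19.5% of all 32851 promoters of this length. The PU-box core GAGGAA stood in promoters of 5 genes (28.3% of all promoters), namely Vsig4, Cd5l, Marco, Id3 and 1 of 2 starts of Nr1h3. The LXR core site AGGTCA stood in those of Clec4f and Timd4 (16.3% of all). A pair of AGGTCA in 1 direction with 4 bases between (0.0152% of all), the E-box CAGCTG (16.3%) and the TATA box TATAAA (13.6%) stood in none of them. These are letter matches on both strands, with no binding data behind them.

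Clec4f UMIs were found in 2 of the 8 libraries. Liver PC had 428 and the library labelled heart TIL had 207 over all barcodes, and the other 6 libraries had 0. In macrophages the level was 35.5 counts per 1000000 UMIs (CPM, with its exact Poisson 95% interval from 31.9 to 39.3) in liver PC and 35.1 CPM (29.5 to 41.5) in the library labelled heart TIL. The intervals of the 2 libraries overlapped almost fully. Without macrophages carrying 2 or more Cd3 or Cd79 UMIs they were further apart, at 60.6 CPM (53.0 to 68.9) and 44.3 CPM (35.7 to 54.3). In the library labelled liver TIL, whose macrophages were as many, 0 UMIs allowed at most 0.782 CPM at a limit of 3 UMIs, so liver PC was at least 45.4-fold higher (36.7-fold at the lower end of the exact interval of the ratio). The limits were 3.67 and 3.29 CPM in heart and liver PBMC, but 17.9, 31.5 and 63.6 CPM in kidney TIL, kidney PC and kidney PBMC, too high to show much of a difference from liver PC. All intervals and limits cover counting error only, and no value has a replicate.

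The other surface receptors had the same 2 libraries on top. Vsig4, a complement receptor that clears opsonised particles, was at 35.6 CPM in liver PC macrophages (360 UMIs), 32.3 CPM in the library labelled heart TIL (127 UMIs) and 2.61 CPM in the library labelled liver TIL (10 UMIs). It had no UMI in the other 5 libraries. Timd4, a receptor for phosphatidylserine on dying cells that marks long-resident macrophages, was at 12.9, 13.2 and 0.782 CPM in the same order, on 131, 52 and 3 UMIs. Marco, a scavenger receptor for bacteria and particles, was at 252 CPM in liver PC macrophages and at 146 CPM in the library labelled heart TIL. Over all macrophages it was the receptor that differed between the 2 libraries beyond counting error, by 1.73-fold (1.58 to 1.89). In the library labelled liver TIL it was at 7.04 CPM. Without macrophages carrying 2 or more Cd3 or Cd79 UMIs, Vsig4 differed as well. It was then at 58.5 CPM (51.1 to 66.7) in liver PC and 40.9 CPM (32.7 to 50.6) in the library labelled heart TIL. The intervals of Timd4 and of Folr2 still overlapped between these libraries. Among these receptors Folr2, a folate receptor of many resident macrophages, was the exception. Its level was highest in liver PC at 16.0 CPM (13.6 to 18.7), followed by the library labelled heart TIL at 13.2 CPM (9.89 to 17.4), kidney TIL at 11.9 CPM (1.45 to 43.1) and the library labelled liver TIL at 11.2 CPM (8.11 to 15.1). Neighbours in this order did not differ beyond their intervals.

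Cd5l, a secreted protein that binds lipids and IgM, was at 191 CPM in liver PC macrophages and 183 CPM in the library labelled heart TIL. Against these 1937 and 717 UMIs stood a single one among the macrophages of the library labelled liver TIL, and none among those of the kidney and blood libraries. The ratio of liver PC to the library labelled liver TIL was 735, with an interval from 132 upwards because it rests on 1 UMI. Cd5l was thus high in the 2 libraries that hold Clec4f, and in the kidney libraries 0 UMIs still allowed 17.9 to 63.6 CPM. Without macrophages carrying 2 or more Cd3 or Cd79 UMIs the 2 libraries were further apart. Cd5l was then at 285 CPM (269 to 303) in liver PC and 229 CPM (209 to 251) in the library labelled heart TIL.

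**Figure D1:**
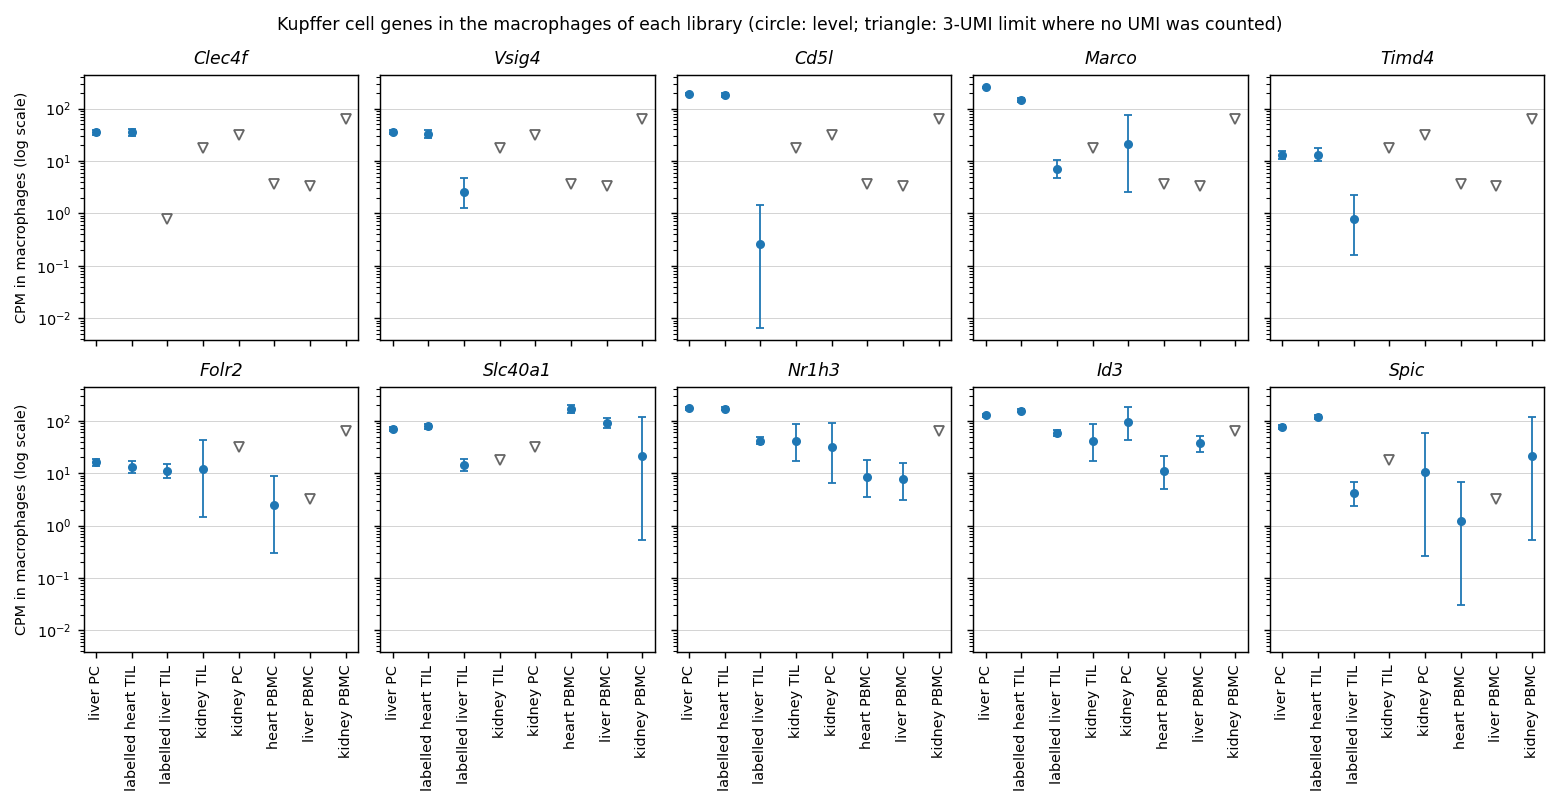
Level of each of the 10 genes in the macrophages of each library, in CPM on a log axis. Circles are levels with exact Poisson 95% intervals, and open triangles are the 3-UMI limits of libraries where no UMI was counted. Clec4f has circles only in liver PC and the library labelled heart TIL, whereas Slc40a1 is highest in heart PBMC.

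Slc40a1, ferroportin, is the only known cellular iron exporter and lets macrophages return iron from red cells. It was at 69.6 CPM in liver PC macrophages, 78.9 CPM in the library labelled heart TIL and 14.3 CPM in the library labelled liver TIL. Unlike the receptors it was also abundant in blood. Over all barcodes it reached 163 CPM in heart PBMC and 141 CPM in liver PBMC. Kidney PBMC at 40.6 CPM was near liver PC at 43.9 CPM and the library labelled heart TIL at 47.3 CPM. Most of the kidney PBMC value came from barcodes under 500 UMIs, with 125 Slc40a1 UMIs (52.0 CPM), and liver PC held no such barcodes. Among cells of kidney PBMC, macrophages had 1 Slc40a1 UMI and the other cells had 14 (14.0 CPM). In heart PBMC its level was 168 CPM (141 to 198) in the Csf1r-positive cells taken as macrophages and 210 CPM (190 to 231) in cells with the neutrophil receptor gene Csf3r and no Cd3 or Cd79 UMI. There it was also 94.2 CPM in Cd3-positive cells and 187 CPM in barcodes under 500 UMIs. In liver PBMC the Csf3r-positive cells were at 182 CPM (161 to 205) and the macrophages at 92.2 CPM (73.5 to 114), so there it was higher in Csf3r-positive cells than in macrophages, while Cd3-positive cells at 51.8 CPM and Cd79-positive cells at 82.8 CPM were lower and barcodes under 500 UMIs were at 203 CPM. For kidney TIL and kidney PC, by contrast, 3 and 4 UMIs were found over all barcodes. This division by Csf3r, Cd3 and Cd79 was chosen after the levels had been seen.

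**Figure D2:**
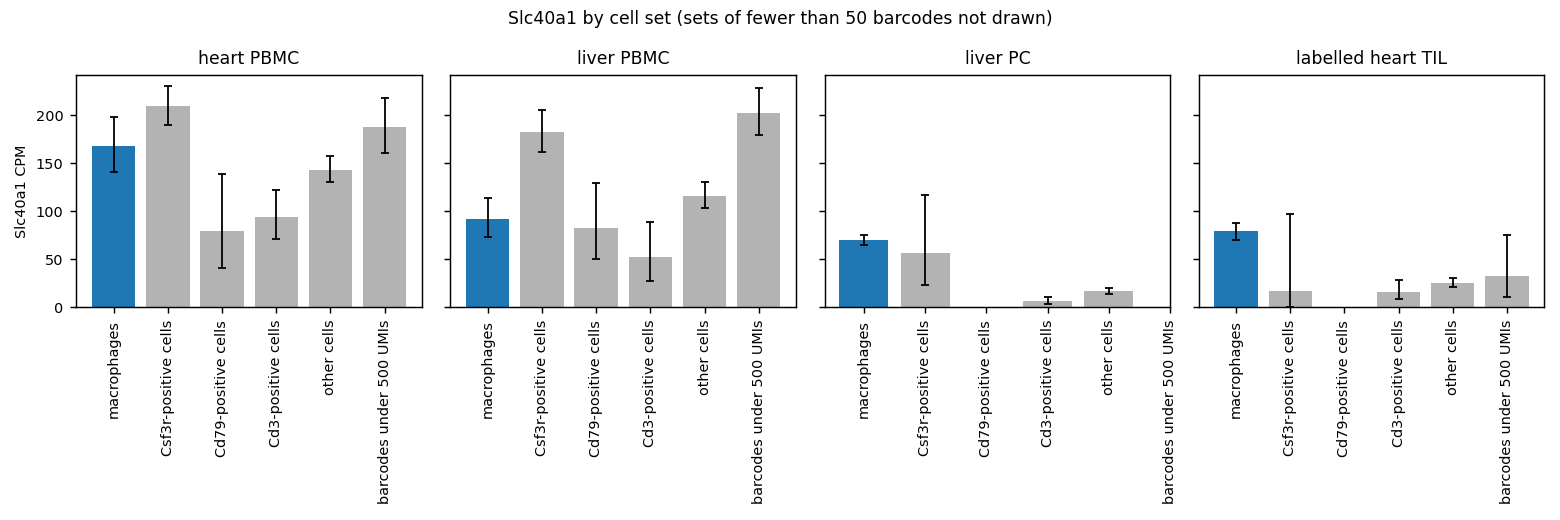
Slc40a1 in CPM by set of cells in heart PBMC, liver PBMC, liver PC and the library labelled heart TIL, with exact Poisson 95% intervals. In both blood libraries Csf3r-positive cells are above Cd3-positive cells, and in liver PC the macrophages (blue) at 69.6 CPM are above the Cd3-positive and the other cells.

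Of the 3 transcription regulators, Nr1h3 and Id3 had UMIs in the macrophages of every library except kidney PBMC, whereas Spic had few outside the large graft libraries. Nr1h3 encodes LXR alpha, an oxysterol receptor that Kupffer cells need to keep their identity. It was at 172 CPM in liver PC macrophages, 170 CPM in the library labelled heart TIL and 42.0 CPM in the library labelled liver TIL. Kidney TIL and kidney PC macrophages had 41.8 CPM and 31.5 CPM, on 7 and 3 UMIs. Heart and liver PBMC macrophages had 8.56 and 7.68 CPM. Spic is an ETS factor linked to haem and to red pulp macrophages. It was at 76.0 CPM in liver PC, 120 CPM in the library labelled heart TIL and 4.17 CPM in the library labelled liver TIL. Macrophages of heart PBMC, kidney PBMC and kidney PC had 1 Spic UMI each, and those of liver PBMC and kidney TIL had 0. Its level was higher in the library labelled heart TIL, with liver PC at 0.633 of it (0.563 to 0.711). Id3, a partner of E proteins needed by Kupffer cells and used by many lymphocytes, was measured at 126, 157 and 57.9 CPM in those libraries (liver PC at 0.805 of the library labelled heart TIL, 0.731 to 0.888) and 94.6 CPM (43.3 to 180) in kidney PC. In heart and liver PBMC macrophages Id3 was at 11 and 37.3 CPM. In kidney TIL, Id3 was at 41.8 CPM (16.8 to 86.1) in macrophages, 112 CPM (82.6 to 149) in Cd3-positive cells and 151 CPM (126 to 178) in the remaining cells.

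Set side by side, 0 of the 10 genes were at least 2-fold higher (with 1 CPM added) in liver PC macrophages than in those of the library labelled heart TIL, where 5.62% of all genes with at least 10 UMIs were. Against the library labelled liver TIL it was 9 of 10 (8.1% of all genes), with Folr2 the exception. Against kidney TIL it was 6 (9.65% of all genes) and against kidney PC 5 (8.08%). In kidney PC macrophages those 5 rest on 2 UMIs of Marco, 3 of Nr1h3, 1 of Spic and 0 of Cd5l and Slc40a1. Clec4f, Vsig4 and Timd4 had no UMI in macrophages of kidney TIL or kidney PC. They were among those outside the count, because their limits were too high to show a 2-fold difference. Against liver, heart and kidney PBMC it was 9 (17.5% of all genes), 9 (32.6%) and 5 (5.07%), and Slc40a1 was the gene outside the count in heart and liver PBMC. Of the 5 counted against kidney PBMC, Slc40a1 and Spic rest on 1 UMI each there, with ratios of 3.28 (0.587 to 130) and 3.58 (0.641 to 142). With at least 1000 UMIs per cell the counts against kidney TIL, kidney PC and kidney PBMC fell to 2, 0 and 0. With macrophages taken by C1q alone the counts against the 3 PBMC libraries fell to 0. Without macrophages carrying 2 or more Cd3 or Cd79 UMIs the count against the library labelled heart TIL was 1. The median log2 ratio of the 10 genes was 0.01 against the library labelled heart TIL and 3.16 against the library labelled liver TIL, where the medians of all genes were 0.15 and 0.21. What sets the 2 TIL libraries apart was not tested.

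Within liver PC the 10 genes were 2.84-fold (Folr2) to 6.19-fold (Vsig4) higher in macrophages than in other cells. 7 of 10 passed 4-fold with 1 CPM added to both sides, where 0.324% of all genes did. Timd4 missed it at 5.10-fold because its levels were low, and Folr2 and Id3 were at 2.84-fold and 2.87-fold. The count fell to 2 with 5 CPM added, and to 0 without the 5% of cells with the most UMIs. It also fell to 0 when only Csf1r-positive cells were taken as macrophages. The 1605 cells taken by C1q alone were then counted among the other cells. Each gene was also seen outside macrophages: Clec4f had 69 UMIs in other cells of liver PC, at 7.62 CPM. Among them the 99 Csf3r-positive cells were at 40.6 CPM (13.2 to 94.8) on 5 UMIs, and at 154 CPM of Cd5l, near the levels in macrophages. After each cell was thinned to 500 UMIs, Clec4f was found in 0.922% of macrophages (exact binomial interval 0.671 to 1.24) and in 0 of 1157 T cells, which allows a share of cells with a UMI of up to 0.259% at a limit of 3 cells (exact upper end 0.318%). T cells here had at least 2 Cd3 UMIs and none of Csf1r or C1q, with a median of 1367 UMIs, compared with 1676.5 in macrophages. This rule leaves out T cell barcodes that hold those macrophage transcripts. The T cell shares are thus partly set by the rule and may be too low as a background. Marco was found in 6.33% of macrophages and 1.56% of T cells, and Cd5l in 5.32% and 0.864%, so part of the UMIs of these abundant genes lay in T cells. Without thinning, the share with a Clec4f UMI was 2.68% of macrophages and 0.519% of T cells (6 of 1157, 0.191 to 1.13).

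To separate genes kept to Clec4f-positive cells from genes shared with other macrophages, the macrophages were divided by a Clec4f UMI. Liver PC had 128 Clec4f-positive and 4642 Clec4f-negative macrophages, with medians of 2164.5 and 1668.5 UMIs, and the library labelled heart TIL had 91 and 3593, with medians of 1073 and 904. Of the 9 remaining genes, 6 were at least 4-fold higher in Clec4f-positive cells of liver PC, and they were the same 6 in the library labelled heart TIL: Vsig4, Timd4, Cd5l, Folr2, Marco and Slc40a1. Over all genes with at least 10 UMIs this held for 1.35% in liver PC and 1.45% in the library labelled heart TIL. Over genes with at least as many UMIs as the lowest of the 9 (131 and 52) it held for 0.601% and 0.424%. The median log2 ratio of the 9 genes was 3.83 and 3.02, and 0.07 and 0.13 over all genes with UMIs on both sides.

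Vsig4 and Timd4 had the largest ratios of the 9 genes in both libraries. Vsig4 was at 685 CPM in the 128 positive cells of liver PC and 12.8 CPM in the negative cells, 53.6-fold apart (43.0 to 67.1), and 37.4-fold apart (26.0 to 53.9) in the library labelled heart TIL. Timd4 was at 254 and 4.50 CPM, 56.4-fold apart (38.8 to 83.0), and 29.1-fold apart (16.2 to 52.0) in the second library.

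Cd5l was 17.1-fold higher (15.5 to 18.7) in positive cells of liver PC and 8.17-fold (6.77 to 9.80) in the library labelled heart TIL. Marco was 15.1-fold and 12.9-fold higher, and Folr2 15.5-fold and 11.6-fold. Slc40a1 was 11.6-fold (9.76 to 13.6) and 6.92-fold (5.09 to 9.28) higher, so within these macrophages the iron exporter followed Clec4f, while in blood it was found without any Clec4f UMI. For Cd5l and Slc40a1 the intervals of the 2 libraries did not overlap. The negative cells, far more numerous, still held most UMIs of 4 of the 6 genes in liver PC, namely Slc40a1 (501 of 704), Marco (1668 of 2553), Folr2 (105 of 162) and Cd5l (1212 of 1937).

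The 3 regulators were not kept to Clec4f-positive cells. Nr1h3 was 2.15-fold (1.77 to 2.59) higher in liver PC and 2.0-fold (1.41 to 2.75) in the library labelled heart TIL, Spic 1.94-fold (1.42 to 2.59) and 2.83-fold (1.98 to 3.93), and Id3 1.68-fold (1.30 to 2.13) and 1.89-fold (1.30 to 2.66). Their intervals lay above 1 and below 4 in both libraries.

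**Figure D3:**
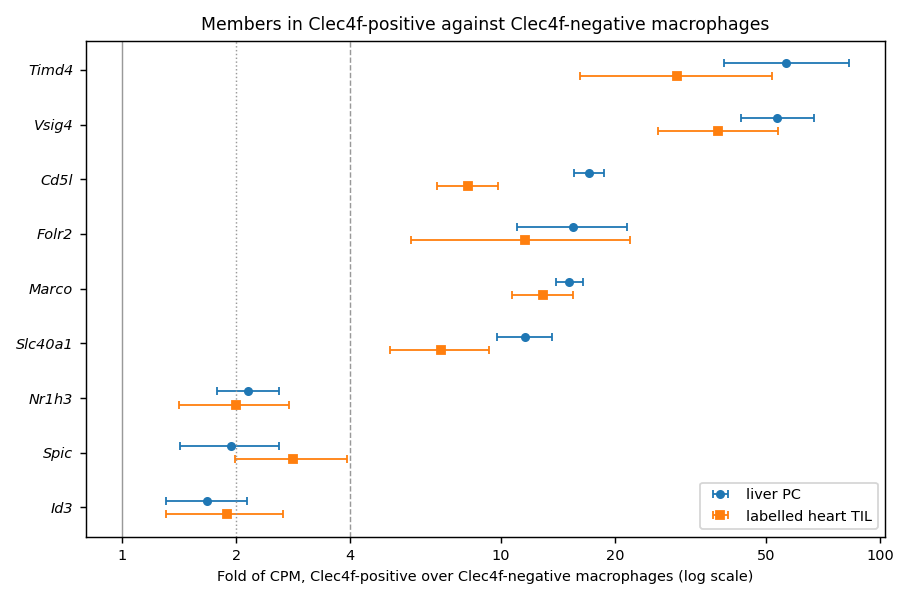
Ratio of each gene's level in Clec4f-positive over Clec4f-negative macrophages, on a log axis with exact 95% intervals, in liver PC (circles) and the library labelled heart TIL (squares). Lines mark 1, 2 (dotted) and 4 (dashed). The 6 genes from Timd4 to Slc40a1 lie above 4 in both libraries, and Nr1h3, Spic and Id3 lie between 1.68 and 2.83.

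Leaving out macrophages with 2 or more Cd3 or Cd79 UMIs kept 62 positive and 1901 negative cells in liver PC, and the same 6 genes stayed above 4-fold. Vsig4 was then 79.0-fold higher, Timd4 69.9-fold, Cd5l 21.4-fold, Marco 20.1-fold, Folr2 15.5-fold and Slc40a1 13.7-fold. Nr1h3 was at 2.35-fold, Spic at 1.61-fold and Id3 at 1.49-fold. Clec4f itself was at 60.6 CPM in these macrophages of liver PC and 44.3 CPM in those of the library labelled heart TIL, and stayed at 0 UMIs in the library labelled liver TIL. At least 2 Cd3 UMIs were carried by 51.6% of the Clec4f-positive and 58.8% of the Clec4f-negative macrophages of liver PC, and by 37.4% and 43.4% in the library labelled heart TIL.

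The step from Clec4f-negative to Clec4f-positive was not the same for all positive cells. Of the 128 positive macrophages in liver PC, 85 had 1 Clec4f UMI, 23 had 2 to 4 and 20 had 5 or more. Cd5l went from 124 CPM in negative cells to 332, 3240 and 4977 CPM over these sets. Vsig4 went from 12.8 to 59.0, 1160 and 1633 CPM, and Timd4 from 4.50 to 21.5, 437 and 600 CPM. Cells with a single Clec4f UMI thus stood nearer to the negative cells than to those with 2 or more. Cd5l was found in all 43 cells with 2 or more Clec4f UMIs, but in 21 of the 85 with 1. In the highest set Vsig4 was found in 20 of 20 cells, Slc40a1 in 18, Timd4 in 17, and Marco and Folr2 in 16 each. These 20 cells were also deeper, with a median of 4223.5 UMIs, compared with 1668.5 in negative cells, and the part of depth in their shares was not tested.

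Nr1h3 went from 165 CPM in negative cells to 134, 482 and 722 CPM, so that it passed 4-fold only in the cells richest in Clec4f. Id3 went from 123 to 102, 317 and 344 CPM, and Spic from 73.7 to 113, 211 and 156 CPM. Cells of the library labelled heart TIL with a single Clec4f UMI were further from the negative cells. Vsig4 was at 385 CPM compared with 15.2. Marco was at 1005 CPM compared with 107, with its UMIs in 10 of 66 cells. These cells had a median of 926.5 UMIs, compared with 1751 in liver PC, so 1 UMI stood for a larger part of a cell. The part of depth in this difference was not tested. The highest set of the library labelled heart TIL held 3 cells.

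**Figure D4:**
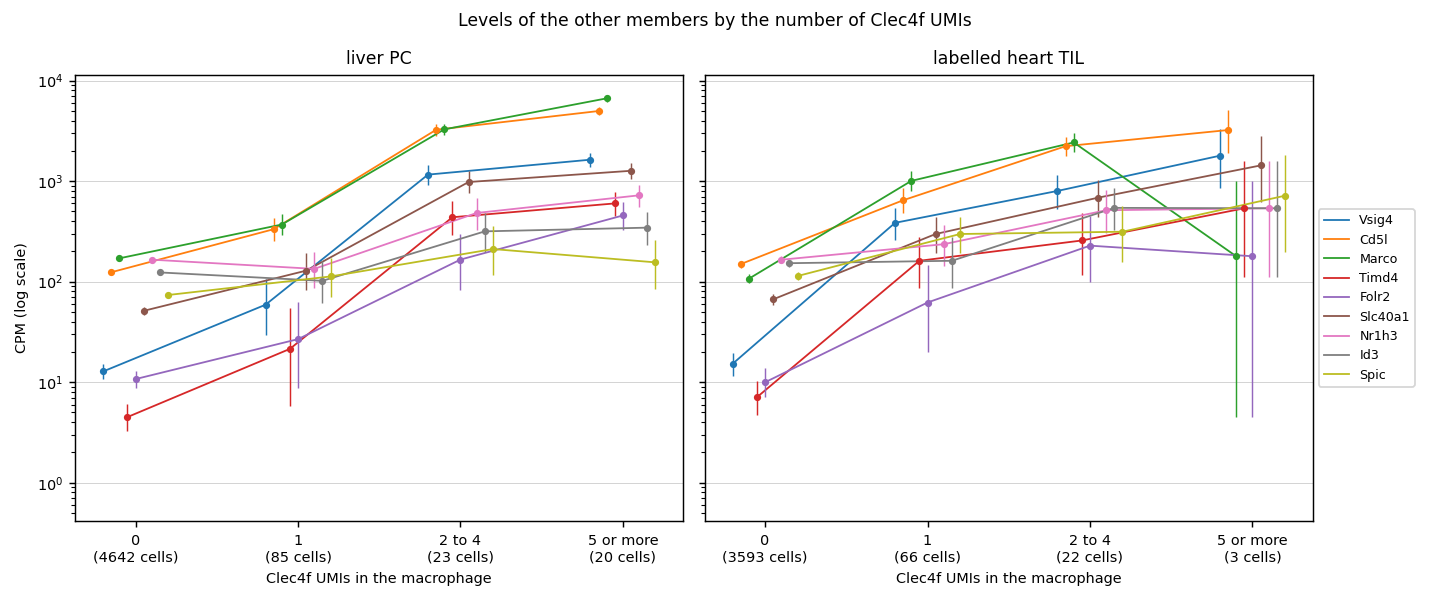
Levels of the 9 other genes in macrophages with 0, 1, 2 to 4 and 5 or more Clec4f UMIs, in CPM on a log axis with exact Poisson 95% intervals, for liver PC (left) and the library labelled heart TIL (right). In liver PC the rise lies mainly between 1 and 2 Clec4f UMIs, and the last set of the library labelled heart TIL holds 3 cells.

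Single cells carried several of these genes at once. The 6 kept genes had been chosen by this same division of the macrophages. Their higher share in Clec4f-positive cells thus partly restates that choice and is a description. At least 3 of the 6 kept genes were found in 50 of 128 Clec4f-positive macrophages of liver PC (39.1%, exact binomial interval 30.6 to 48.1) and in 52 of 4642 Clec4f-negative ones (1.12%, 0.838 to 1.47). The library labelled heart TIL had them in 32 of 91 (35.2%) and 22 of 3593 (0.612%). After thinning to 500 UMIs the shares in liver PC were 29.5% of 44 and 0.381% of 4726, and those in the library labelled heart TIL 18.2% of 55 and 0.441% of 3629. Before thinning, the 52 macrophages without a Clec4f UMI that carried 3 or more of the genes were thus about as many as the 50 with one. Among 3950 macrophages of the library labelled liver TIL, 1 had 3 of the 6 genes.

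Pairs of genes were compared in liver PC macrophages thinned to 500 UMIs, as the share of cells with 1 gene among cells with and without the other. Among Clec4f and the 6 kept genes this ratio was 9.04 in the median of 42 ordered pairs (3.10 to 53.7). Between those 7 genes and Nr1h3, Id3 and Spic it was 1.40 in the median of 21 pairs (0 to 3.31), and among the 3 regulators 1.69. The lowest ratio among the 7 genes was thus below the highest with the regulators. The genes had been grouped by their Clec4f ratio in these same macrophages, so this contrast is a description. The same medians were 6.16 (1.73 to 35.5), 1.43 and 1.35 in the library labelled heart TIL. There too the lowest ratios among the 7 genes, such as 1.73 for Marco in Slc40a1-positive cells, overlapped those with the regulators (0 to 2.66). Timd4 had the largest ratio with Clec4f, 53.7. The lowest ratio among the 7 was 3.10, for Marco in Folr2-positive cells, and 1 cell held 142 of the Marco UMIs. A gene common in negative cells cannot reach a high ratio, so this order also follows abundance. Of the 44 Clec4f-positive cells, 7 had Timd4, 20 had Cd5l and 19 had Marco. Of the negative cells, 0.296%, 4.95% and 5.99% had them. The 10 cells richest in a gene held 25.8% of the macrophage UMIs of Marco, 32.2% of those of Vsig4, 37.0% of those of Clec4f and 42.0% of those of Timd4. For Spic, no cell had it together with Clec4f or Timd4 after thinning, where 44 and 21 cells were positive for those genes, too few to read as absence.

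**Figure D5:**
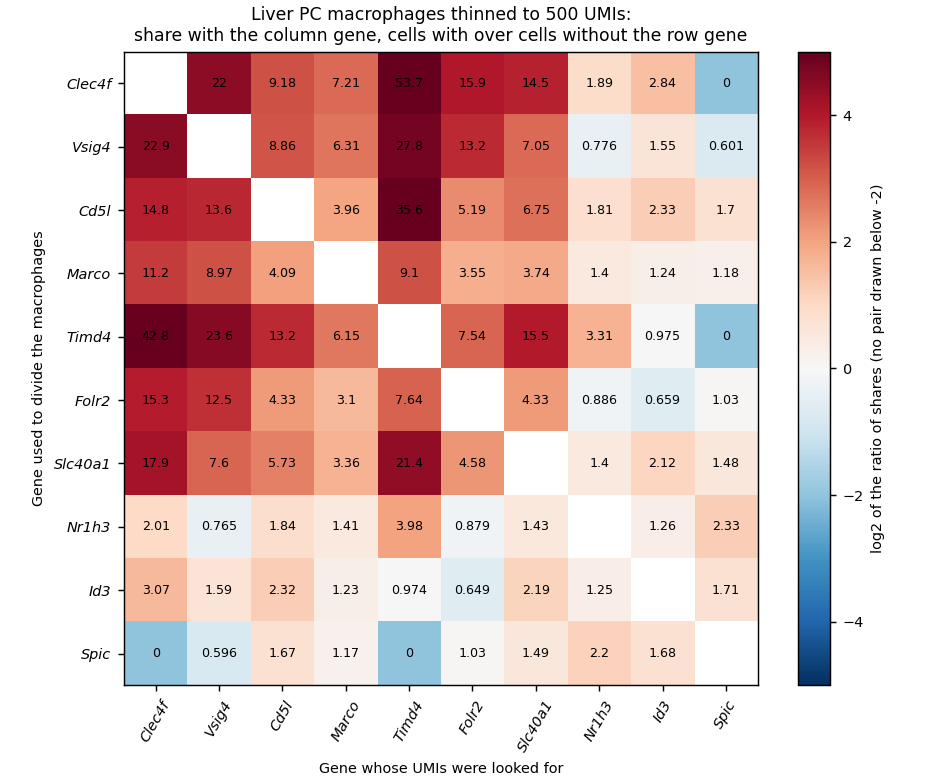
Ratio of the share of liver PC macrophages with a UMI of the column gene among cells with and without the row gene, after thinning each cell to 500 UMIs, coloured on a log2 scale. The block of the first 7 genes has ratios from 3.10 to 53.7, and the rows and columns of Nr1h3, Id3 and Spic have ratios from 0 to 3.98.

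Clec4f-negative macrophages also differed between libraries. In liver PC they had 124 CPM of Cd5l, 171 CPM of Marco and 51.3 CPM of Slc40a1, and in the library labelled heart TIL 149, 107 and 66.7 CPM. The library labelled liver TIL had 0.261, 7.04 and 14.3 CPM. Spic was 17.7-fold (10.8 to 31.1) higher in Clec4f-negative macrophages of liver PC than of the library labelled liver TIL, Nr1h3 3.94-fold (3.35 to 4.67) and Id3 2.13-fold (1.85 to 2.47). Against the library labelled heart TIL, Nr1h3 was at 1.0-fold (0.913 to 1.10) and Id3 at 0.809-fold (0.732 to 0.895). Folr2 was at 0.959-fold (0.666 to 1.40) against the library labelled liver TIL. Cd5l and Marco UMIs were also found in T cells of liver PC, as given above, and the part of free RNA in these levels was not tested.

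The Clec4f-positive cells themselves were compared between the 2 libraries. Clec4f was at 1047 and 1138 CPM in positive cells of liver PC and the library labelled heart TIL. Vsig4, Timd4, Folr2, Slc40a1, Nr1h3 and Id3 had ratios of 0.717 to 1.44, each with an interval that held 1. Cd5l at 1.73 (1.45 to 2.08) and Marco at 1.87 (1.59 to 2.22) were higher in liver PC, and Spic at 0.444 (0.286 to 0.695) was lower. The 2 libraries shared 155 barcodes, among them 0 Clec4f-positive macrophages of liver PC and 1 of the library labelled heart TIL.

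Other genes known from Kupffer cells were mostly higher in the same cells. Of 15 such genes, 11 were at least 4-fold higher in Clec4f-positive macrophages of liver PC (1.35% of all genes). Among the 11, Kcna2, Slc16a9, Paqr9, Cdh5 and Cd207 rest on 5, 7, 7, 10 and 11 UMIs in positive cells. The remaining 4 were between 2-fold and 4-fold, where 7.92% of all genes were at least 2-fold higher. The 4 with the most UMIs were Hmox1, which degrades haem (2.08-fold), Il18bp, which binds IL-18 (2.47-fold), the adhesion molecule Vcam1 (2.58-fold) and the apolipoprotein Apoc1 (7.90-fold). For the library labelled heart TIL 7 of 12 measured passed 4-fold (1.45% of all genes). Hmox1 at 1.54-fold and Axl at 0.951-fold lay within 2-fold there. In liver PC, iron and haem genes as a group were not mostly higher, with 1 of 12 past 4-fold (1.35% of all genes). This was the haemoglobin receptor Cd163 at 25.6-fold, while the ferritin chains Fth1 and Ftl1 were at 0.842-fold and 1.02-fold. Cd163 and the iron exporter Slc40a1 were thus past 4-fold, and the ferritin chains were within 2-fold.

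Of 9 partners and targets of Nr1h3, 2 passed 4-fold (1.35% of all genes). They were Pltp, a phospholipid carrier, at 5.84-fold and the partner Rxra at 4.32-fold (2.33 to 7.47, 15 UMIs). The cholesterol exporter Abcg1 was at 3.33-fold. The most abundant, Apoe, was at 1.16-fold, and the second LXR gene Nr1h2 at 0.870-fold. Of 13 macrophage transcription factors 12 lay within 2-fold (87.2% of all genes), and Rxra was the exception. Among the 12, Id2 was at 0.977-fold, Spi1 at 1.16-fold and Irf8 at 1.19-fold. For the library labelled heart TIL none of the 9 and none of 12 factors passed 4-fold (1.45% of all genes). Pltp, Rxra and Abcg1 are named here because of their values.

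Of 8 general macrophage genes 6 lay within 2-fold (87.2% of all genes), with Lyz2 at 0.603-fold, Ctss at 1.06-fold and Cd68 at 1.32-fold. Summed, the 8 were at 11045 CPM in positive and 14284 CPM in negative cells. The mannose receptor Mrc1 at 7.13-fold and the efferocytosis receptor Mertk at 2.21-fold were the exceptions. Monocyte genes were lower or level: Chil3 was at 0.474-fold, Ly6c2 at 0.598-fold and Plac8 at 0.763-fold. None of the 8 was 2-fold higher (7.92% of all genes). Of 8 genes of other macrophages none passed 4-fold (1.35% of all genes). Between 2-fold and 4-fold lay 2, Cbr2 at 2.72-fold and Gas6 at 2.48-fold, on 2 UMIs each in positive cells. The most abundant, Arg1 and Spp1, were at 0.552-fold and 0.675-fold. These are values of liver PC, and Arg1 stood the other way in the library labelled heart TIL, at 1.64-fold (1.25 to 2.12).

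Markers of other cells were followed because many macrophage barcodes carried T cell UMIs. Whether these came from doublets or free RNA was not tested. T cell markers together were at 1692 CPM in Clec4f-positive and 2689 CPM in Clec4f-negative macrophages of liver PC, with 0 of 4 past 2-fold. Neutrophil markers were at 7880 and 8667 CPM, B cell markers at 23.3 and 41.1 CPM, dendritic markers at 23.3 and 21.5 CPM, and stellate and stromal markers at 11.7 and 79.5 CPM. Hepatocyte markers were higher in positive cells, at 373 and 179 CPM, with 4 of 5 at least 2-fold higher (7.92% of all genes), though Alb was at 0.956-fold. NK markers were at 90.4 and 37.5 CPM, with 2 of 3 at least 2-fold higher. Sinusoidal endothelium markers were at 72.9 and 33.5 CPM, with Cdh5 and Stab2 past 4-fold, on 10 and 5 UMIs in positive cells (Cdh5 is also among the 15 Kupffer genes), while Clec4g had no UMI in positive cells. Erythroid markers had 0 UMIs in positive cells and 2.25 CPM in negative ones. The summed levels of the hepatocyte, NK and endothelium lists were thus higher in positive cells of liver PC, while Alb and 4 of the 6 endothelium markers measured were not 2-fold higher, and their part in the result was not tested. In the library labelled heart TIL these 3 lists differed by less than 2-fold, at 355 and 298 CPM, 24.7 and 42.8 CPM, and 57.7 and 55.4 CPM.

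The 10 further genes with the largest ratios in liver PC were taken among those with at least 20 UMIs in Clec4f-positive cells, a minimum on the side where they are high, so their ratios in liver PC are a description. They were Cxcl13, H2-Ea-ps, C6, Ifi202b, Gm15459, Cd163, Ccl24, Fcna, C2 and Hpgd. Cxcl13, a chemokine for B cells, was 58.3-fold higher (43.1 to 79.5) in liver PC and 29.5-fold (19.3 to 45.0) in the library labelled heart TIL. The eosinophil chemokine Ccl24 was 20.2-fold and 22.4-fold higher. The complement genes C6 and C2 were 51.3-fold and 21.6-fold higher in liver PC, and the lectin Fcna, which triggers complement, 20.2-fold. Each of the 10 was 8.97-fold to 44.0-fold higher in the library labelled heart TIL as well, on 5 to 70 UMIs in positive cells. That library had not been used to choose them, and 1.45% of all genes were at least 4-fold higher there. C6, Cd163, Fcna and Hpgd are also among the 15 Kupffer genes above, so their values are given in both counts.

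On the GRCm38 build with the GENCODE M21 annotation, the gene bodies lie at chr6:83644542-83656187 (Clec4f), chrX:96247203-96293438 (Vsig4), chr3:87357881-87371073 (Cd5l), chr1:120474538-120505024 (Marco), chr11:46810800-46844332 (Timd4), chr7:101839988-101857194 (Folr2), chr1:45908068-45926523 (Slc40a1), chr2:91184061-91202834 (Nr1h3), chr4:136143497-136145755 (Id3) and chr10:88674772-88685015 (Spic). Folr2 overlaps Gm10602 and Gm45319 on the opposite strand, and Nr1h3 overlaps Gm13783 on its own strand and Gm23390 on the opposite one. Counts are tagged near the 3′ end, and whether strand was used is not given in the sources used here, so UMIs of Folr2 and Nr1h3 cannot be told apart from those of these neighbours. The other 8 genes overlap no annotated gene.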

How the data were processed

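The 8 mouse libraries were grouped by the organ and compartment in their labels, 1 library per condition. The authors aligned Microwell-seq reads to GRCm38 with STAR, removed multi-aligned reads, merged UMIs differing at 1 base within a gene with the Drop-seq tools, and deposited raw UMI counts per gene and barcode. The GENCODE release is not given in the sources used here. The tables list genes with at least 1 UMI, so a gene missing from a table was taken as 0 UMIs. Barcodes under the stated minimum of 500 UMIs were still present in 7 of the 8 tables, and 1 cell in all exceeded the stated 10% of mitochondrial UMIs.

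UMIs were summed over cells and given as CPM with exact Poisson 95% intervals, shares with exact binomial intervals, and ratios with conditional exact intervals. Folds past 2 or 4 were counted with 1 CPM added, and a side at 0 entered at 3 UMIs. At least 4-fold was called kept, under 2-fold shared. Cells were thinned to 500 UMIs with seed 0. No doublet caller was run. Further genes were named by list, taking the 2 to 4 with the most UMIs and some others for their values, or as the 10 with the largest ratio. Each comparison is between single libraries or between cells of 1 library, so no test was run, and a model adding organ and compartment over the 8 libraries was not fitted. The 10 genes, the lists and the comparisons were chosen with earlier results of these data known. Ratios, intervals and thinning were tested on simulated data. Alternatives were other UMI minima, macrophage rules, pseudocounts and cell filters. Python 3.11.15, numpy 2.4.6, scipy 1.17.1 and matplotlib 3.10.9 were used.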

Additional observations from a re-analysis of the deposited data

How the results depend on the processing

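The 6 genes kept to Clec4f-positive cells of liver PC were the same 6 under each of the 11 alternatives run. Among these, taking all barcodes and applying the limit on mitochondrial UMIs could not change any value within liver PC. That library held no barcode under the UMI minimum and no cell over the mitochondrial limit. Of 112 values recomputed, 89 held (counts and the share of all genes within 1.5 times, other values within their counting interval) and 23 moved. The 89 include the values within liver PC that those settings could not change. Clec4f in liver PC macrophages moved from 35.5 CPM to 41.4 CPM with Csf1r alone, 44.7 CPM with C1q alone, 60.6 CPM without macrophages carrying 2 Cd3 or Cd79 UMIs, and 26.2 CPM without the 5% of cells with the most UMIs. The share of macrophages with a Clec4f UMI moved from 0.922% to 1.32% without macrophages carrying Cd3 or Cd79 UMIs and to 2.68% without thinning. The median log2 ratio of the 9 other genes moved from 3.83 to 4.83 with positive cells from 2 UMIs, 3.44 with 5 CPM added and 3.13 without the deepest 5% of cells. Genes at least 4-fold higher in macrophages than in other cells of liver PC fell from 7 to 2 with 5 CPM added. They fell to 0 without the deepest 5%, and to 0 with Csf1r alone, where 1605 cells taken by C1q alone joined the other cells. Genes at least 2-fold higher in liver PC than in the library labelled heart TIL went from 0 to 1 with Csf1r alone and to 1 without macrophages carrying Cd3 or Cd79 UMIs. With C1q alone the counts against heart, liver and kidney PBMC fell to 0, 0 and 0, since 5, 8 and 1 macrophages remained there. With at least 1000 UMIs per cell the counts against kidney TIL, kidney PC and kidney PBMC fell to 2, 0 and 0, since fewer cells raised their limits. Against kidney PC it was 3 with Csf1r alone and 3 without the deepest 5%, and against kidney PBMC 3 without the deepest 5%. Within 1.5 times, the count against kidney TIL rose from 6 to 9 over all barcodes and to 8 without macrophages carrying Cd3 or Cd79 UMIs, and that against kidney PC from 5 to 7 over all barcodes. Where no reason is given, the cause was not tested. Without a minimum of UMIs, 1.31% of all genes passed 4-fold, compared with 1.35%. Depth limits the kidney libraries most, where a gene needs 17.9 to 63.6 CPM in macrophages to be seen reliably.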

Other observations

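H2-Ea-ps, named above for its ratio, is the reference name of the MHC class II E alpha gene, which C57BL/6 mice do not transcribe and BALB/c mice do. Over all barcodes it had 108 UMIs in liver PC (5.63 CPM), 124 in kidney PC (36.3 CPM) and 85 in kidney TIL (21.6 CPM). There were 31 in the library labelled heart TIL (3.33 CPM), 1 in the library labelled liver TIL, and 0 in each of the 3 PBMC libraries. Its level was thus highest in kidney PC and kidney TIL, which had no Clec4f UMI. In liver PC it was at 157 CPM (118 to 205) in Clec4f-positive macrophages, with a UMI in 26 of 128 cells, and at 3.27 CPM (2.24 to 4.62) in Clec4f-negative ones, with a UMI in 31 of 4642. When liver PC macrophages were divided by H2-Ea-ps instead of Clec4f, into 57 cells with and 4713 without a UMI, Clec4f was 62.7-fold higher (50.7 to 77.7) in the cells with it. Timd4 was 75.4-fold higher and Vsig4 65.2-fold, whereas Nr1h3, Spic and Id3 were at 2.67-fold, 1.91-fold and 1.85-fold. In the library labelled heart TIL the same division gave 14 cells with a UMI, and ratios of 25.5 for Clec4f and 45.6 for Timd4. H2-Ea-ps had been picked for its ratio between Clec4f-positive and Clec4f-negative macrophages of liver PC. The high ratios of Clec4f and the genes that follow it in this division thus restate that link and are a description. These divisions were chosen after the values had been seen, and the strain of single cells was not tested.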
